A study of Mus musculus with 4 samples.

Results

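Meiotic chromosome axis and recombination genes were examined in whole-genome bisulfite sequencing of mouse embryonic stem cells with and without induced knockout of Ogt. The set held 10 genes (Sycp1, Sycp2, Sycp3, Syce1, Hormad1, Hormad2, Stag3, Smc1b, Dmc1 and Stra8) of 21627 protein-coding genes on the autosomes and X. They were chosen by name for known roles in meiosis, but with promoter results of these data known. Comparisons of the set with all genes are therefore descriptions, not independent support. For each gene the CpGs from 3 kb before its annotated start to 3 kb after its end were pooled per library. The kilobase at a gene end with the most CpG positions listed in any library served as its promoter window. Ogt encodes O-GlcNAc transferase, an enzyme that adds a single sugar to serine and threonine residues of many nuclear and cytosolic proteins.

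Both groups came from an Ogt fl/fl line, so the controls carried the floxed alleles too. The knockout (iKO) cells were grown for 6 days with 4-hydroxytamoxifen (4-OHT) and sorted as YFP-positive, and the control cells were grown without the drug. All were kept on mitomycin C-treated embryonic fibroblast feeders with LIF and serum replacement, and viable cells were sorted with antibodies to CD90.2 and CD326 to remove the feeders. Each group held 2 libraries, and the labels do not say whether these came from separate cultures, so the p-values measure only the spread between these libraries. Drug exposure, the reporter sort and loss of Ogt cannot be told apart. Bisulfite leaves 5-methylcytosine and 5-hydroxymethylcytosine alike unconverted, and a methylation level is the percentage of reads over a CpG that stayed unconverted, whichever mark they carried. In a pool of cells, fewer methylated cells and fewer methylated copies per cell cannot be told apart. Gene expression was not measured in these libraries, so stem cell markers were not checked.

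In prophase of the first meiotic division each pair of sister chromatids is arranged as loops on a protein axis, built from meiosis-specific cohesin, HORMA-domain proteins and the SYCP2 and SYCP3 filaments. Recombination joins homologous chromosomes through breaks repaired with the homologue, and transverse filaments of SYCP1 then bridge the axes to form the synaptonemal complex. In most somatic cells the CpG-rich promoters of many such germline genes carry DNA methylation and the genes are silent, and in embryonic stem cells a repressor complex with E2F6 and MGA also acts on several of them. The E-box CACGTG, bound by MGA with MAX, and the sequence GCGGGAA, of the E2F type, are known from promoters of this class.

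The upstream sequences of 4 members show how CpGs and these motifs lie before the start. They overlap the promoter windows measured below in part for Sycp1 and Sycp3, wholly for Hormad1 and not for Stag3. They are the 250 bases before the annotated start, 5′ to 3′, from RefSeq (GRCm38.p6, the assembly that mm10 names), with every CG in capitals. Sycp1, Sycp3 and Hormad1 were chosen because they hold an E-box close to the start, and Stag3 because methylation there differed sharply between the 2 sides of the start. The stretches are chr3:102936101-102936350 on the minus strand (Sycp1), chr10:88459337-88459586 on the plus strand (Sycp3), chr3:95559427-95559676 on the plus strand (Hormad1) and chr5:138280259-138280508 on the plus strand (Stag3).
Sycp1: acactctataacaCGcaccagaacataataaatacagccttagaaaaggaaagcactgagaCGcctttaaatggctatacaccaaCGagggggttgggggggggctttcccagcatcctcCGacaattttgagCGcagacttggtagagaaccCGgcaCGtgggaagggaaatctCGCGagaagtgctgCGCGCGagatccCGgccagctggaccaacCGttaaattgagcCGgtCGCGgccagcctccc
Sycp3: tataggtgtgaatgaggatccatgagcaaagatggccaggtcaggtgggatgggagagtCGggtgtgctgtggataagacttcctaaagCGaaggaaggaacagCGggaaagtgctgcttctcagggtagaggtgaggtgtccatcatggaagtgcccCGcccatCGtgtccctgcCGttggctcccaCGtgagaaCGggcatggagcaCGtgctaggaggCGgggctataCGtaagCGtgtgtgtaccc
Hormad1: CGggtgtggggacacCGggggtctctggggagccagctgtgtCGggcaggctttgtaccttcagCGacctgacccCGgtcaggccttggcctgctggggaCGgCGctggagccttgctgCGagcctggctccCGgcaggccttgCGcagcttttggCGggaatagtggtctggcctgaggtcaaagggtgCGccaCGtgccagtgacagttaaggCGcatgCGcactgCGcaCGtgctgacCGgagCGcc
Stag3: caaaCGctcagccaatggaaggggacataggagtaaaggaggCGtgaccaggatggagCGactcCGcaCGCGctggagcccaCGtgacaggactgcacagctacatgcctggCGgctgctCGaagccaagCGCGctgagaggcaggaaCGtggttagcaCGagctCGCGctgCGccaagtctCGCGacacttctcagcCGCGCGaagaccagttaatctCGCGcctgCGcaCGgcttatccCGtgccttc

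Promoter sequences of 300 bases, 250 before and 50 after the start, were searched on both strands for GCGGGAA and for the E-box CACGTG, which reads alike on either strand. The E-box was found in 4 of 10 members (Sycp1, Sycp3, Hormad1 and Stag3) and in 7.995% of 17273 promoters of protein-coding genes. GCGGGAA was found in 4 of 10 members (Sycp3, Hormad1, Stag3 and Smc1b) and in 6.06% of all. Sycp3, Hormad1 and Stag3 held both motifs, as did 0.602% of all promoters. Among the 9990 promoters with at least 10 CG dinucleotides the shares were 11.3% for CACGTG and 9.65% for GCGGGAA. The E-boxes began at position -94 in Sycp1, -64 and -43 in Sycp3, -57 and -20 in Hormad1, and -170 in Stag3, with -1 the base directly before the start. GCGGGAA began at -147 in Sycp3, -95 in Hormad1 and -48 in Smc1b, and at -3 in Stag3, where it crosses the start. A match is a description of the letters and says nothing of binding. The members had a median of 17 CG dinucleotides per promoter sequence against 14 in all promoters, and a median observed-over-expected CpG ratio of 0.645 against 0.585. All 187 of the members' CG dinucleotides were at positions listed in the tables.

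The libraries held 64273609 to 79929994 reads over CpGs, a mean depth of 3.36 to 4.05 reads per listed CpG, and the iKO libraries were the deeper ones. Over CpGs of the autosomes and X read in every library, the level was 66.4% in iKO 1, 64.0% in iKO 2, 71.2% in control 1 and 74.8% in control 2. Of mitochondrial reads, 0.253% to 0.307% were unconverted. Depth over the whole length of Ogt, relative to X, was 1.19 to 1.28 with the groups overlapping. Loss of a small part of the gene could leave this measure unmoved, so it cannot decide whether the deletion occurred. Promoter windows of the members were read thinly, with 0.524 to 6.06 reads per listed CpG and library. Unless stated otherwise, a CpG counted where all 4 libraries had at least 1 read over it, and levels stand in the order iKO 1, iKO 2, control 1, control 2. No molecular identifiers are stated for the reads, so intervals cover counting error only.

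At their promoter windows all 10 genes were lower in the iKO mean than in the control mean, as were 59.6% of all windows tested. The members' differences ran from -0.722 (Dmc1) to -22.2 percentage points (Syce1). In 6 of 10 (Sycp1, Sycp2, Sycp3, Syce1, Stag3 and Smc1b) both iKO libraries lay below both controls, which held for 24.7% of all 17403 promoter windows tested. Among 329 windows with at least 40 CpGs and an average level of 20% or more over all 4 libraries, a class that carries methylation to lose, the share was 45.0%. In that class 78.4% were lower in the iKO mean. Of the members Syce1 and Hormad1 meet both criteria, while 6 average under 20%, and Hormad2 and Stag3 list 37 and 20 CpGs, so the class is a reference for few of them. The members' median difference was -12.8 points, beside -0.43 over all windows and -7.78 in that class; it was -20.9 without control 1 and -8.83 without control 2. Their median level was 11.7%, 9.28%, 18.2% and 35.7%, so control 2 stood well above control 1, and control 2 was the higher control in 8 of 10 members. That held for 42.9% of all windows, most of which are near 0, and for 63.5% of the 329.

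No promoter difference passed the test. A window was called where a quasi-binomial regression on the share of unconverted reads, with its dispersion moderated by limma, gave a Benjamini-Hochberg adjusted p under 0.05 and the groups differed by at least 10 points. By this rule 0 of 17403 windows were called, and 398 (2.29%) had an unadjusted p under 0.05, of which 1 was a member, Sycp2. Moderation added only 0.625 degrees of freedom to the dispersion. With 2 libraries per group this test therefore had little power for a single window among 17403. Its 0 calls do not show that the windows were unchanged. The edgeR quasi-likelihood test called 1 window, not a member, with 1078 at an unadjusted p under 0.05, and limma on logit levels called 0, with 1302. When windows under 5% were left out, an alternative added after the data were seen, 80 of 6696 windows were called lower and 1 higher, with Sycp1 (adjusted p = 0.0251, limma-moderated model) and Sycp2 (adjusted p = 0.0486, same model) among them.

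**Figure D1:**
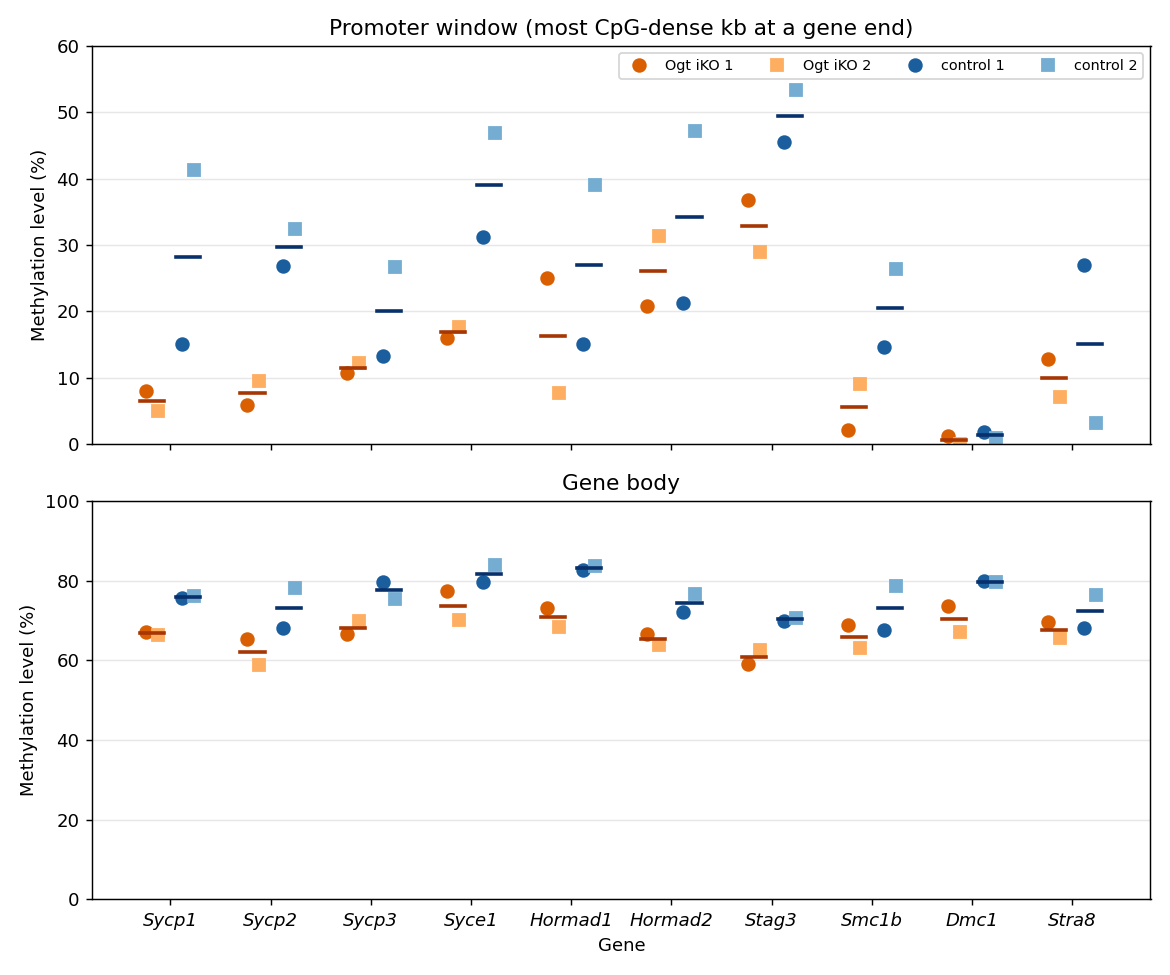
Methylation level (%, linear axis) of each gene in its promoter window (upper panel) and gene body (lower panel), 1 point per library and a short bar at the mean of each group of 2. Both iKO points lie below both control points in 6 promoter windows, and control 2 (light squares) is the higher control in 8; in the bodies all points lie above 58%.

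Stag3 and Smc1b encode subunits of the cohesin that holds meiotic sister chromatids on the axis. The promoter window of Smc1b (chr15:85131457-85132456), which also overlaps the divergent gene Ribc2, stood at 2.13%, 9.09%, 14.6% and 26.4% over 18 CpGs. Both iKO libraries were below both controls, with a mean of 5.61% ± 4.92 (SD, n = 2) against 20.5% ± 8.37 (SD, n = 2). The difference of -14.9 points was larger than either SD but not called (adjusted p = 0.771, limma-moderated model). It was -8.97 without control 2, -20.8 without control 1 and -24.8 when each CpG had equal weight. Over all 63 listed CpGs with no read minimum the levels were 1.52%, 9.09%, 6.20% and 11.8%, the groups overlapped and the difference shrank to -3.71. In that count iKO 2 had 33 reads in total and the other libraries 129 to 198.

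For Stag3 the densest kilobase (chr5:138272014-138273013, 14 CpGs used) lay at the outer end of the gene, overlapped Gal3st4 and did not hold the start site given for its promoter sequence. It stood at 36.8%, 28.9%, 45.5% and 53.3%, with the groups apart and a difference of -16.5 points (adjusted p = 0.771, limma-moderated model), which was -4.49 when each CpG had equal weight. The kilobase centred on the annotated start (chr5:138280009-138281008, 31 CpGs) stood at 7.95%, 9.09%, 18.8% and 27.5%. There both iKO libraries, at 8.52% ± 0.809 (SD, n = 2), were below both controls, at 23.1% ± 6.21 (SD, n = 2). Over all 67 listed CpGs of that kilobase the levels were 5.41%, 9.09%, 7.65% and 12.1%, so the groups overlapped, and the difference was -2.64.

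The groups stood apart on the gene's side of the Stag3 start. The 500 bp before the start were almost unmethylated in every library, at 0%, 0%, 2.63% and 3.57%. The first 500 bp of the gene stood at 16.4%, 12.5%, 33.3% and 43.9%. The following 500 bp, over 7 CpGs, stood at 0%, 0%, 42.3% and 45.5%, from 13, 29, 26 and 11 reads. Smc1b had a like order: 0%, 0%, 0% and 13.6% before the start, 3.70%, 12%, 25% and 35.5% in the first 500 bp after it, and 14.3%, 20%, 66.7% and 88.9% in the following 500 bp. The last of these bins held 3 CpGs and 5 to 9 reads per library.

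Hormad1 and Hormad2 encode HORMA-domain proteins that sit on unsynapsed axes and take part in the checks on pairing. Hormad1 (chr3:95559177-95560176, 21 CpGs) stood at 25%, 7.69%, 15.1% and 39.0%, and Hormad2 (chr11:4440398-4441397, 36 CpGs) at 20.7%, 31.4%, 21.2% and 47.1%. In both genes the iKO and control libraries overlapped, and control 2 alone stood above all others. The differences of -10.7 points for Hormad1 and -8.10 for Hormad2 were smaller than the SD of their controls, 16.9 and 18.3 points. Without control 2 they turned to 1.25 and 4.86 points, and without control 1 they were -22.7 and -21.1. The 500 bp bin upstream of the Hormad1 start (chr3:95559001-95559500, 7 CpGs) stood at 40%, 14.3%, 60.9% and 65.7%, with the groups apart. The next bin (chr3:95559501-95560000, 12 CpGs), which holds the start, stood at 13.8%, 5.56%, 3.12% and 24.4%, with the groups overlapping. In the 500 bp before the Hormad2 start (11 CpGs) the order was the opposite, with 21.2%, 20%, 8% and 12.1%, so both iKO libraries lay above both controls.

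Sycp2 and Sycp3 encode the filament proteins of the axis, later the lateral elements of the synaptonemal complex. The Sycp2 window (chr2:178406776-178407775, 32 CpGs) stood at 5.88%, 9.47%, 26.8% and 32.5%, from 102, 95, 56 and 77 reads. Its 95% Wilson intervals ran from 2.72% to 12.2% and from 5.06% to 17.0% in the iKO libraries, and from 17.0% to 39.6% and from 23.1% to 43.5% in the controls. Both replicates of a group were close together, at 7.68% ± 2.54 against 29.6% ± 4.02 (SD, n = 2 each). Its difference of -21.9 points had the smallest unadjusted p of the members (0.0178, limma-moderated model, adjusted p = 0.771), and was -19.1 to -24.8 when any library was left out. The Sycp3 window (chr10:88459487-88460486, 30 CpGs) stood at 10.7%, 12.2%, 13.3% and 26.8%. Here the groups were apart by little, since control 1 was near both iKO libraries, and the difference was -8.62 points but -1.91 without control 2 and -15.3 without control 1. Over all 51 listed CpGs the levels were 10.1%, 13.9%, 11.1% and 29.5%, and the groups overlapped. In the kilobase centred on the Sycp3 start the levels were 27.8%, 30.4%, 44.0% and 45.3%, a difference of -15.5 points with the replicates of each group close together.

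Sycp1 encodes the transverse filament and Syce1 a protein of the central element, which lies midway between the axes. The Sycp1 window (chr3:102935300-102936299, 35 of 86 listed CpGs used) stood at 7.94%, 5.00%, 15.2% and 41.3%. Both iKO libraries were low, and control 2 was well above control 1. The means were 6.47% ± 2.08 and 28.2% ± 18.5 (SD, n = 2 each), and the difference of -21.8 points became -8.68 without control 2 and -34.9 without control 1. Over all 86 listed CpGs the levels were 8.03%, 10.2%, 30.6% and 34.9%, so both controls were high and close together, and the difference was -23.6. Over all listed CpGs of the printed stretch upstream of the start, with no read minimum, control 1 was instead the high library. The levels were 19.4%, 23.3%, 83.3% and 20%, from 62, 30, 18 and 15 reads, which need not cover the same CpGs in each library. Over CpGs read in every library, the 500 bp before the start stood at 37.5%, 29.4%, 63.6% and 40%. In the kilobase centred on the Sycp1 start the levels were 31.6%, 19.2%, 48.4% and 33.3%. The difference there was -15.5 points, with iKO 1 close to control 2. The Syce1 window (chr7:140787254-140788253, 15 of 47 listed CpGs used) stood at 16.0%, 17.6%, 31.2% and 46.9%, from 75, 34, 32 and 32 reads. Its groups were apart, at 16.8% ± 1.16 against 39.1% ± 11.05 (SD, n = 2 each). The difference was -22.2 points (adjusted p = 0.771, limma-moderated model), and over all listed CpGs it was -13.6, from 10.9%, 17.4%, 27.6% and 27.8%. It was -30.1 without control 1 and -14.4 without control 2. In the bin at chr7:140788001-140788500, on the upstream side of the Syce1 start, the levels were 5.41%, 7.69%, 52.9% and 47.6%, from 37, 13, 17 and 21 reads. Over all listed CpGs with no read minimum, the 250 bases directly before the start stood at 3.53%, 0%, 14.8% and 8.82%. These came from 85, 1, 27 and 34 reads, which need not cover the same CpGs in each library. The value of iKO 2 there is a single read, so this stretch and the bin cannot be compared closely.

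Dmc1 encodes the meiotic recombinase that carries out strand exchange between homologues. Its promoter window (chr15:79604559-79605558, 47 CpGs) was almost unmethylated in every library, at 1.28%, 0%, 1.88% and 0.847%. The 0 of 122 reads in iKO 2 allow a level of up to 2.46%, taking 3 counts as the limit of a count of 0, and the difference of -0.722 points was within the spread between replicates. Away from the start the picture was mixed: the bin from 1500 to 1000 bp upstream stood at 36.1%, 33.3%, 64.6% and 58.3%, with both iKO libraries below both controls. In the adjacent bins the groups overlapped. The outer one stood at 43.6%, 60.5%, 67.7% and 57.1%, and the inner one at 2.50%, 10.3%, 8.33% and 3.23%. On the gene side the bin from 500 to 1000 bp stood at 10.8%, 9.09%, 26.1% and 23.8%, from 37, 11, 23 and 21 reads.

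Stra8 encodes the retinoic acid-induced protein that brings germ cells into meiosis. Its window (chr6:34920663-34921662, 33 CpGs) stood at 12.8%, 7.06%, 27.0% and 3.17%, so the controls were the highest and the lowest library and enclosed both iKO libraries. The difference of -5.19 points turned to 6.74 without control 1 and was -17.1 without control 2. Control 1 was the high library along the start of the gene, with 37.5% from 1000 to 1500 bp against 5.88%, 2.38% and 5.00% in iKO 1, iKO 2 and control 2.

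**Figure D2:**
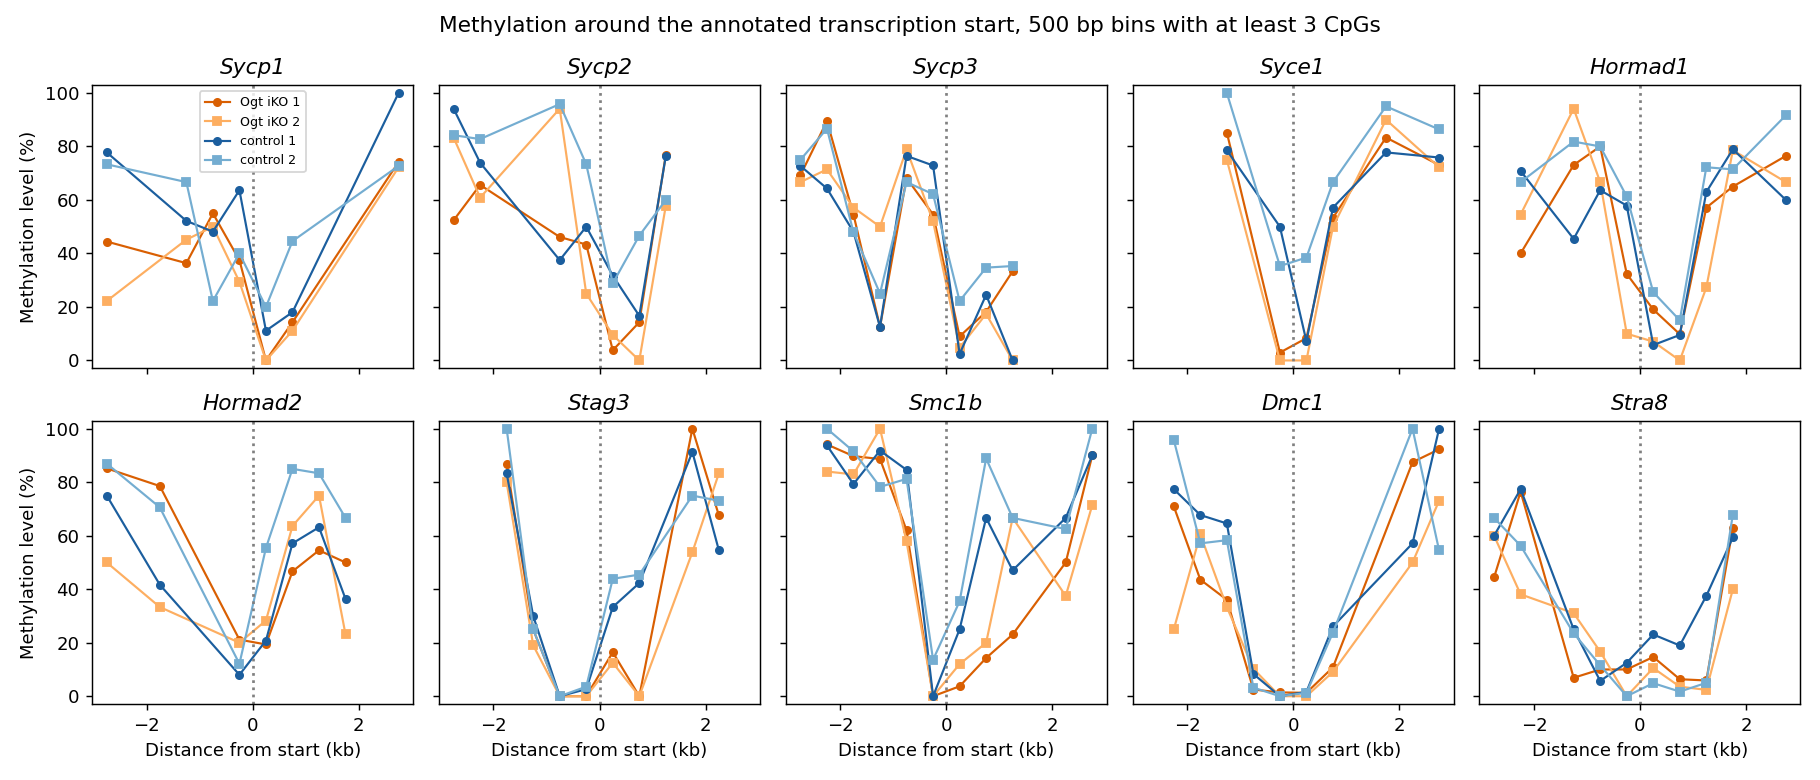
Methylation level (%) against distance from the annotated start (kb, positive into the gene) for each gene, 1 line per library, in 500 bp bins with at least 3 CpGs read in every library. The control lines lie above the iKO lines within 1 kb after the start of Stag3 and Smc1b, the Dmc1 start is near 0 in all libraries, and control 1 alone is raised at Stra8.

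As a share of the control mean, the iKO mean was 22.9% (Sycp1) to 76.3% (Hormad2) in the promoter windows, with a median of 52.0%. The shares include Dmc1, at 46.9% from levels near 0. They also include Hormad1 (60.4%), Hormad2 and Stra8 (65.6%), whose differences reversed without 1 control. In the 329 CpG-dense windows at 20% or more, the class that 8 of 10 members fall outside, the median was 81.4%. The classes were not tested against each other, and the members were chosen with promoter results of these data known. In the kilobase centred on the annotated start, which could be tested in 9 members (not in Syce1, too thinly read), 5 of 9 had both iKO libraries below both controls, against 22.5% of 12098 such windows. Their median difference was -14.6 points, beside -0.37 over all. The median level over all such windows was 1.39% to 1.84% per library, so many have little methylation to lose. Over all listed CpGs the groups overlapped in Stag3 (-2.64 points) and Smc1b (-3.71). They stayed apart in Sycp1 (-23.9), Sycp2 (-19.8) and Sycp3 (-16.1).

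The gene bodies gave a different measure, with 40 to 582 CpGs and 147 to 2870 reads per library. All 10 bodies were lower in the iKO mean, with differences from -4.62 (Stra8) to -12.4 points (Hormad1), from control means of 70.3% to 83.2%. In 8 of 10 both iKO libraries were below both controls (not in Smc1b and Stra8), which held for 85.9% of 18004 bodies. Their median difference of -9.22 points was close to the -8.55 of all bodies, and the iKO mean was 84.9% to 93.6% of the control mean, with a median of 87.9% beside 88.4% over all bodies.

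Hormad1 was the only body called, 1 of 10 beside 19.2% of all bodies called lower and none higher. Its levels were 73.1%, 68.5%, 82.6% and 83.8%, and it fell by 12.4 points, from 83.2% ± 0.814 to 70.8% ± 3.27 (SD, n = 2 each; adjusted p = 0.0222, limma-moderated model). The call was lost without iKO 2 (adjusted p = 0.186, same limma-moderated model) and when each library's genome-wide level entered as an offset (adjusted p = 0.291, same limma-moderated model). By the adjusted p alone, without the 10-point minimum, 5 of 10 bodies passed beside 48.1% of all. The other 4 were Sycp1 at -9.10 points (adjusted p = 0.0073), Hormad2 at -9.15 (0.0101), Stag3 at -9.45 (0.0212) and Dmc1 at -9.29 (0.0245), in the same limma-moderated model. Stag3 missed the threshold over all listed CpGs, at -5.20 points (adjusted p = 0.159, limma-moderated model), and without either iKO library. Its body also holds the annotated start and the bins beside it described above. Dmc1 missed the threshold without iKO 2, at -6.00 points (adjusted p = 0.248, limma-moderated model). Sycp1, Hormad2, Stag3 and Dmc1 all missed the threshold with unweighted CpG levels in limma, at adjusted p of 0.0533, 0.0547, 0.130 and 0.0675. Hormad1 still passed in that limma fit (adjusted p = 0.0413). With the offset for the genome-wide level 0 of 10 passed in the limma-moderated model, at adjusted p of 0.291 to 0.884. In that fit 1 of 10 had an unadjusted p under 0.05. Calls with the offset were few over all bodies too: with the 10-point minimum, 133 of 18004 were called lower.

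The Sycp1 body showed the tightest replicates, at 67.2%, 66.5%, 75.6% and 76.2%. The Sycp2 body had a larger difference, -11.1 points, but its libraries stood at 65.3%, 58.9%, 68.2% and 78.2%, and it missed the threshold (adjusted p = 0.0544, limma-moderated model). Its difference was -6.09 points without control 2, and it was called without control 1 (-16.0 points, adjusted p = 0.00113, same limma-moderated model), without iKO 1 (-14.3 points, adjusted p = 0.0275, same limma-moderated model) and by edgeR (adjusted p = 0.00526). Smc1b (68.9%, 63.0%, 67.6% and 78.7%) and Stra8 (69.6%, 65.7%, 68.2% and 76.4%) were the bodies in which control 1 fell between the iKO libraries. In both, control 2 alone was above the iKO libraries, and without it the differences were -1.64 and -0.54 points. Without control 1 they were -12.7 points in Smc1b, which was then called (adjusted p = 0.00136, limma-moderated model), and -8.69 in Stra8, which was not. Sycp3 and Syce1, the shortest genes of the set, were measured over 40 and 65 CpGs and differed by -9.47 and -8.07 points without passing the test, and Syce1 by -4.44 without iKO 2.

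**Figure D3:**
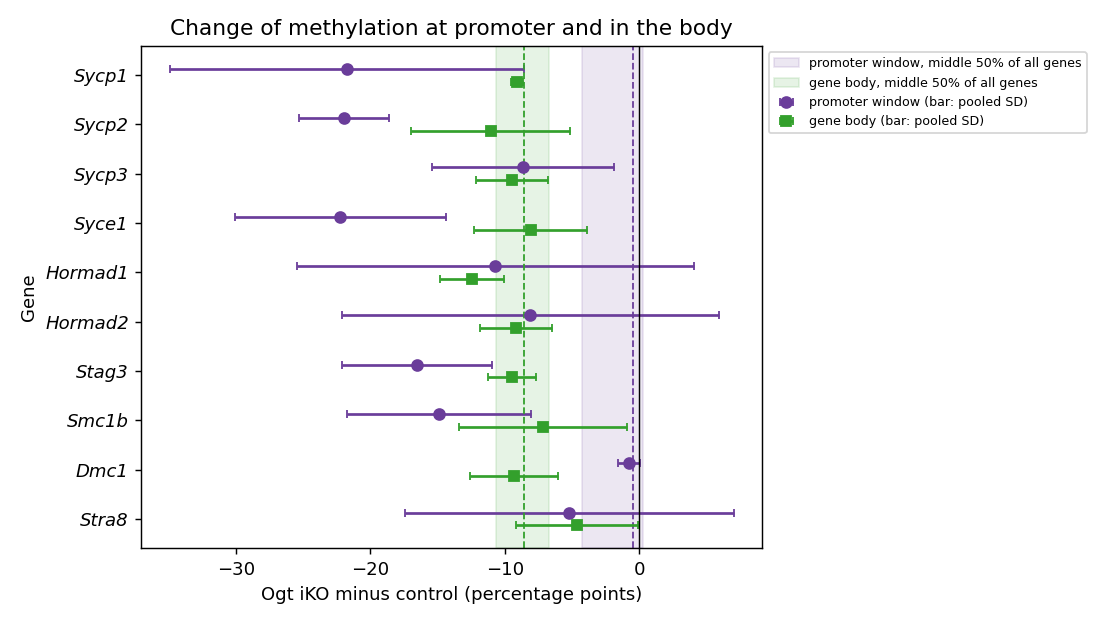
iKO mean minus control mean (percentage points) per gene in the promoter window (circles) and body (squares), with bars of 1 pooled SD of the 2 groups; dashed lines and shaded bands mark the median and middle 50% of all genes. Body differences gather near the median of all bodies, -8.55 points, while promoter differences reach -22.2 points. Promoter bars run from 0.82 (Dmc1) to 14.8 points (Hormad1), with 3.36 at Sycp2.

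Along the 10 genes 1125 bins of 500 bp were spanned, and 184 held enough CpGs and reads to test. By the limma-moderated model 0 were called, as among all 1104888 bins, of which 86685 had an unadjusted p under 0.05, 18 of them in the members. Both iKO libraries were below both controls in 85 of 184 bins (46.2%; 38.3% of all bins) and above them in 6 (4.63% of all bins). Of the tested bins 124 had an average level of 60% or more, 39 lay between 20% and 60% and 21 were under 20%.

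The bins with the largest differences, picked by size, lay near or upstream of the start in Stag3, Syce1, Hormad1 and Dmc1 and inside the gene in Sycp2. They were -43.9 points at chr5:138281001-138281500 (Stag3), -43.7 at chr7:140788001-140788500 (Syce1), -39.9 at chr2:178370501-178371000 (Sycp2), -38.6 at chr15:79607001-79607500 (Dmc1) and -36.1 at chr3:95559001-95559500 (Hormad1). The Sycp2 bin stood at 54.2%, 42.4%, 84.8% and 91.7%, and the Dmc1 bin at 71.0%, 25%, 77.4% and 95.8%, where iKO 2 alone was low. Each of these 5 bins held 5 or 7 CpGs, and none passed the adjusted test. The 6 bins higher in the iKO libraries lay in Hormad2 (2 bins), Smc1b, Stag3, Stra8 and Sycp3, by 7.54 to 26.5 points.

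**Figure D4:**
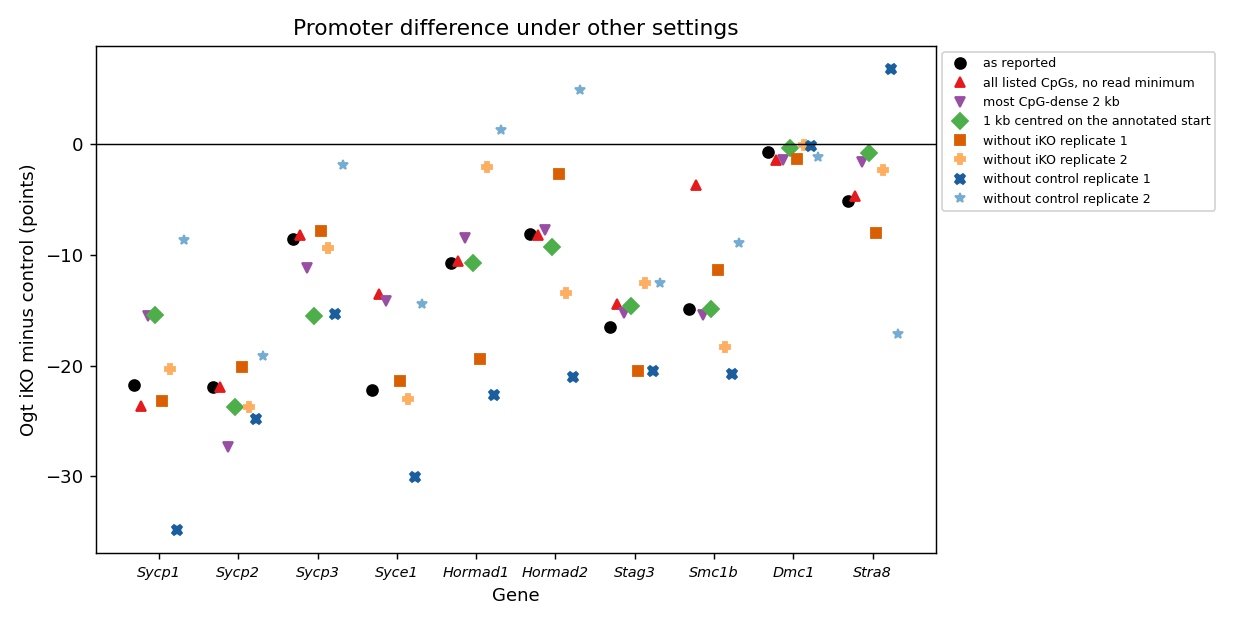
Promoter difference (iKO minus control, percentage points) per gene as reported and under 7 other choices of CpGs, window or libraries. Sycp1, Sycp2, Syce1 and Stag3 stay below -8 points in the settings drawn (Stag3 reaches -4.49 and -2.64 in 2 that are not drawn), whereas Hormad1, Hormad2 and Stra8 cross 0 when 1 control library is left out and Smc1b moves to -3.71 over all listed CpGs.

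A list of 50 other genes of meiosis, of which 49 were matched to the gene table, was measured the same way. Its promoter windows were nearer to all genes. Of 48 tested 0 were called by the limma-moderated model, and 32 were lower in the iKO mean. In 18 (37.5%) both iKO libraries were below both controls, and in 5 above. Over all 17403 windows 59.6% were lower, 24.7% had the groups apart and lower, and 6.79% apart and higher. The median difference of the 48 was -1.79 points, and 23 of them averaged under 5%. Of the 18 windows at 20% or more, 14 were lower and 11 had the groups apart and lower, beside 84.8% lower and 49.0% apart and lower among all 4686 windows at that level. Chosen after their values were seen, the largest differences were in Sgo2a, a protector of centromeric cohesion, at 56.1%, 31.1%, 82.3% and 86.8%, and in Ankrd31, a recombination factor, at 27.4%, 14.0%, 41.5% and 63.3%. Rec8, another meiotic cohesin subunit, ran the other way, with 12.1%, 11.6%, 6.98% and 5.05%. In the bodies 47 of 47 were lower, 10 (21.3%) were called lower and the median difference was -8.95 points, close to the 97.4% lower, 19.2% called and -8.55 points of all bodies.

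Outside both lists the promoter windows most like the members' median levels, by Euclidean distance over the 4 libraries, belonged to Trim13 (distance 1.26 points), Dact3 (3.86) and Eln (4.37). Trim13 stood at 11.8%, 9.09%, 18.4% and 34.5%, an order of libraries that the choice by likeness fixes.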

How the data were processed

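CpG methylation of sorted embryonic stem cells (Ogt iKO and control, 2 libraries each, 6 days of culture) was profiled by whole-genome bisulfite sequencing. The authors deposited 1 table of CpG positions per library, matched to its sample by the genotype and replicate in its name. Per the file headers, the deposited values are counts, per CpG, of methylated reads and of reads showing C or T, and an expected count that corrects the latter for variants by the opposite strand; it served as an alternative depth. BSMAP and Picard and the build mm10 are named in the submitters' processing notes; versions and filters are not given in the sources used here.

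Tables were joined in Python 3.11.15 (NumPy 2.4.6, PyArrow 21.0.0, pandas 2.3.3), with Wilson intervals (95%) from SciPy 1.17.1. Promoter windows were the kilobase, in steps of 100 bp within 1500 bp of a gene end, with most listed CpGs; bodies left out that window and 1 kb on either side. Features needed 10 CpGs and 20 reads per library, bins 5 CpGs and 10 reads. Gene positions came from RefSeq (GRCm38.p6), which gave no exons. Group differences are of the means of 2 library levels. The quasi-binomial model (group only, all 4 libraries) was fitted over all features in R 4.3.3, with the Pearson dispersion moderated by limma 3.58.1 and kept at 1 or more, an F test and Benjamini-Hochberg adjustment; edgeR 4.0.16 was an alternative. The model was also run on simulated data, where changed features lay above the level of most member promoters. Simulated promoter counts varied by counting error only, so that run does not vouch for the promoter test. With 2 against 2 libraries an exact permutation test cannot give a p below 0.333, so none is printed. The named genes are the 10 members, genes that share a promoter window with them, and the 3 genes with the nearest promoter levels; other genes of meiosis were to be named where called at the promoter. None was, so Sgo2a, Ankrd31 and Rec8, and bins picked by size, were chosen after their values were seen. The members and lists were chosen with earlier results of these data known. Lambda DNA levels were not analysed here.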

Additional observations from a re-analysis of the deposited data

How the results depend on the processing

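Members' differences were recomputed with other CpGs, windows or libraries in 125 promoter values, of which 122 kept their direction and 3 reversed, and in 116 body values, of which 115 kept it and 1 reversed; the other settings, 79 and 60 values, changed only the test. Over all settings 2 promoter values gained a call, and among bodies 13 gained and 4 lost one. Without 1 library, promoter differences ran from -17.1 to 6.74 points in Stra8 (6.74 without control 1), from -22.7 to 1.25 in Hormad1 and from -21.1 to 4.86 in Hormad2 (1.25 and 4.86 without control 2); the other reversed value was 0.25 for the Stra8 body at 3 reads per CpG. Promoter calls over all genes became 1 lower at 5 reads per CpG (24 windows, no member tested) and 1 lower with edgeR. Fitting only windows at 5% or more, added after the data were seen, gave 80 lower and 1 higher, with 2 members. Members with the groups apart numbered 0 at 3 reads per CpG (1 tested) and 2 in the densest 500 bp (5 tested). Body calls lower over all genes were 772 at 5 reads per CpG, 133 with the genome-wide level as offset, 8663 with no minimum difference, 84 with 20 points, and 1109 to 7208 without 1 library. Body calls higher were 1 over all listed CpGs, 7 with unweighted levels in limma, 4 with edgeR, 15 with limma on logit levels, 1 with the offset and 0 to 1 without 1 library. Members called in the body numbered 0 at 5 reads per CpG (6 tested, 4 with the groups apart), 0 with the offset, 0 at 20 points, 5 with no minimum difference, 2 in thinned reads, 2 with edgeR, 2 without 3 kb at either gene end, and 0 to 4 without 1 library. Member bins apart and lower numbered 104 to 131 without 1 library, since 2 libraries are more easily apart from 1. The replicate numbers share only a number: the correlation of replicate differences between groups was -0.0435 over promoters and -0.0659 over bodies. With the replicate block 0 promoters and 0 bins were called, body calls lower were 2219, and 0 members were called (Hormad1 adjusted p = 0.0724 in the limma-moderated model). Apart from the changes with fewer features or libraries, the cause was not tested. Depth limits the promoter values: the Wilson interval of control 2 at Syce1, from 32 reads, ran from 30.9% to 63.6%.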
